A study of Homo sapiens with 6 samples.

Results

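The genes described here are 10 readouts and regulators of the unfolded protein response and the integrated stress response: ATF3, ATF4, DDIT3, TRIB3, CHAC1, ASNS, SESN2, HSPA5, XBP1 and DNAJB9. They were chosen by symbol, with earlier results of these data known. Each has 1 row in both count tables, so all 10 were found among 37493 gene identifiers. RNA of 2 cell lines from human esophageal adenocarcinoma was sequenced. OE33 was transfected with an siRNA against PPARG (OE33 siPPARG) or with a non-silencing siRNA (OE33 control), and Eso26 likewise (Eso26 siPPARG and Eso26 control), all with a lipid transfection reagent. OE33 was grown in DMEM and Eso26 in RPMI-1640, so line and medium cannot be told apart. The sources used here do not give the time after transfection, and cells without transfection were not analysed here.

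When unfolded proteins build up in the endoplasmic reticulum (ER), the sensors IRE1, PERK and ATF6 switch on chaperone and degradation genes. PERK and the kinases GCN2, PKR and HRI, which sense lack of amino acids, double-stranded RNA and lack of heme, phosphorylate the translation factor eIF2alpha. This lowers protein synthesis as a whole but favours translation of ATF4, a transcription factor for amino acid and stress genes, so the level of ATF4 mRNA does not give the level of its protein. XBP1 is likewise controlled after transcription, by IRE1 splicing of its mRNA, which counts per gene do not show.

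Each condition had 1 library. The design text speaks of triplicates, but the sources used here do not say whether a column sums several libraries. No test within a line is therefore possible, and differences between siPPARG and control have no replicate check. Totals ran from 16866996 to 23019840 counts per library. Levels are given as CPM, counts relative to the library total after TMM scaling, which sets the libraries on a common scale. In such bulk RNA, fewer cells that express a gene and less RNA per cell cannot be told apart. Intervals are exact 95% intervals of the counts, so they cover counting error only and not the spread between cultures. A gene was kept in a comparison if it had 5 CPM or more in at least 1 of its 2 libraries, and a ratio past 1.5-fold is called higher or lower by size. All 5 epithelial markers (EPCAM, KRT8, KRT18, KRT19 and CDH1) were above 5 CPM in every library, with sums between 4563 and 8767 CPM. The 14 markers of fibroblasts, immune cells and fat cells summed to at most 8.15 CPM for any one cell type, and of them COL1A1 in Eso26 and CD14 in OE33 reached 5 CPM.

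PPARG, the siRNA's target, had 313 counts (17.8 CPM) in OE33 siPPARG and 2156 counts (130 CPM) in the OE33 control, a ratio of 0.137 (interval 0.121 to 0.154). In the library labelled Eso26 siPPARG it had 201 counts (9.41 CPM), against 259 counts (11.2 CPM) in the Eso26 control. The Eso26 ratio was 0.843, and its interval of 0.698 to 1.02 includes 1. A fall of PPARG mRNA was therefore not clear of counting error in Eso26. Even the lower end of the interval, 0.698, lies far above the OE33 ratio of 0.137. Eso26 values below belong to the library labelled siPPARG. In neither line can loss of PPARG be told apart from other effects of the siRNA.

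In OE33, stress genes were mostly somewhat higher after siPPARG: ATF3 and TRIB3 passed 1.5-fold, HSPA5 and DDIT3 followed, and ATF4 and XBP1 themselves differed by less than 1.1-fold. In Eso26, DDIT3, HSPA5 and DNAJB9 stood lower in the library labelled siPPARG with intervals below 1, and of these DDIT3 passed 1.5-fold. Between the lines, TRIB3, CHAC1 and ASNS were several-fold higher in the OE33 control than in the Eso26 control, and HSPA5 and XBP1 were lower.

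**Figure D1:**
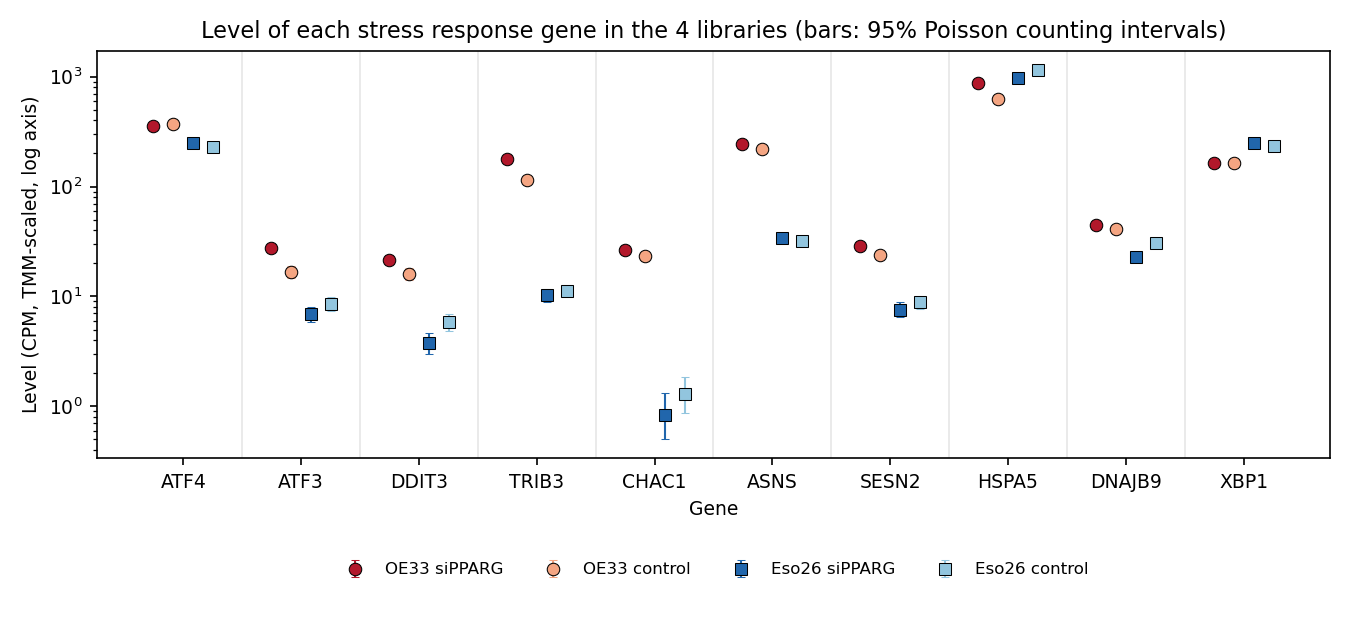
Level of each of the 10 genes in CPM (log axis) in the 4 libraries, with 95% Poisson intervals of the counts. TRIB3, CHAC1 and ASNS separate the OE33 libraries (circles) from the Eso26 libraries (squares); HSPA5 and XBP1 stand higher in Eso26.

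ATF4, the central transcription factor of the integrated stress response, had 356 CPM in OE33 siPPARG and 373 CPM in the OE33 control. Its ratio was 0.954 (interval 0.921 to 0.988). It had 250 CPM in Eso26 siPPARG and 229 CPM in the Eso26 control, with a ratio of 1.09 (interval 1.05 to 1.13). Both differences are small, and they point opposite ways.

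DDIT3 encodes CHOP, a factor induced by ATF4 that promotes cell death under lasting ER stress. It had 382 counts (21.7 CPM) in OE33 siPPARG and 266 counts (16.04 CPM) in the OE33 control, a ratio of 1.35 (interval 1.15 to 1.59). In Eso26 it had 80 counts (3.75 CPM) with siPPARG and 135 counts (5.82 CPM) in the control, a ratio of 0.644 (interval 0.482 to 0.856). DDIT3 was thus higher in the siPPARG library of OE33 and lower in that of Eso26, and both intervals leave out 1. In Eso26 only the control reached the 5 CPM minimum, so the gene was kept there through its higher library. The Eso26 log2 ratio of -0.62 is only just past 1.5-fold, and without scaling factors it was -0.58, inside 1.5-fold.

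ATF3, a stress-induced factor of the same family that is also switched on by cytokines and growth signals, had the highest log2 ratio of the 10 genes in OE33. It had 487 counts (27.6 CPM) in OE33 siPPARG and 277 counts (16.7 CPM) in the OE33 control, a ratio of 1.66 (interval 1.43 to 1.92). This placed it at rank 223 from the top among 10550 kept genes. Eso26 had 147 counts (6.88 CPM) with siPPARG and 198 counts (8.53 CPM) in the control, and the ratio of 0.807 has an interval of 0.647 to 1.004 that just includes 1.

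XBP1 encodes a factor for ER chaperone and degradation genes that also serves secretory cells. It differed little in either line, with 163 CPM in OE33 siPPARG against 164 CPM in the OE33 control, and 247 CPM in Eso26 siPPARG against 236 CPM in the Eso26 control. The ratios were 0.993 (interval 0.942 to 1.05) in OE33 and 1.05 (interval 1.01 to 1.09) in Eso26.

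Besides ATF3, TRIB3 was the other of the 10 genes to pass 1.5-fold in OE33. TRIB3 encodes a pseudokinase that is induced by ATF4 and CHOP and restrains ATF4 and AKT. It had 3112 counts (177 CPM) in OE33 siPPARG and 1887 counts (114 CPM) in the OE33 control, a ratio of 1.55 (interval 1.47 to 1.65), rank 302 of 10550. Eso26 had 220 counts (10.3 CPM) with siPPARG and 260 counts (11.2 CPM) in the control, and the ratio of 0.920 has an interval of 0.765 to 1.11.

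The other amino acid and redox genes stayed inside 1.5-fold in OE33. CHAC1, whose enzyme degrades glutathione, had 470 counts (26.7 CPM) in OE33 siPPARG and 385 counts (23.2 CPM) in the OE33 control, with a ratio of 1.15 (interval 1.002 to 1.32). In Eso26 it had 18 counts with siPPARG and 30 counts in the control, under the expression minimum in both libraries, so no call was made there. ASNS, asparagine synthetase and a classic target of ATF4 when amino acids are short, had 243 CPM in OE33 siPPARG and 221 CPM in the OE33 control (ratio 1.10, interval 1.05 to 1.15). In Eso26 it had 33.9 CPM with siPPARG and 32.2 CPM in the control, and its interval of 0.9497 to 1.17 includes 1. SESN2, which restrains mTORC1 when leucine is low, had 28.7 CPM in OE33 siPPARG and 24.0 CPM in the OE33 control (ratio 1.20, interval 1.05 to 1.37). It had 7.59 CPM in Eso26 siPPARG and 8.88 CPM in the Eso26 control, and its interval of 0.691 to 1.05 includes 1.

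HSPA5 encodes BiP, the main chaperone of the ER lumen and the standard readout of ATF6. It had 15583 counts (884 CPM) in OE33 siPPARG and 10402 counts (627 CPM) in the OE33 control, a ratio of 1.41 (interval 1.38 to 1.45), rank 507 of 10550. In Eso26 it had 20935 counts (980 CPM) with siPPARG and 26794 counts (1155 CPM) in the control, a ratio of 0.849 (interval 0.834 to 0.865). HSPA5 thus differed in opposite directions in the 2 lines, and both intervals leave out 1. DNAJB9, a co-chaperone of BiP that depends on XBP1, had 44.8 CPM in OE33 siPPARG and 41.0 CPM in the OE33 control, with an interval of the ratio of 0.986 to 1.21. It had 22.99 CPM in Eso26 siPPARG and 30.9 CPM in the Eso26 control, a ratio of 0.745 (interval 0.663 to 0.837).

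**Figure D2:**
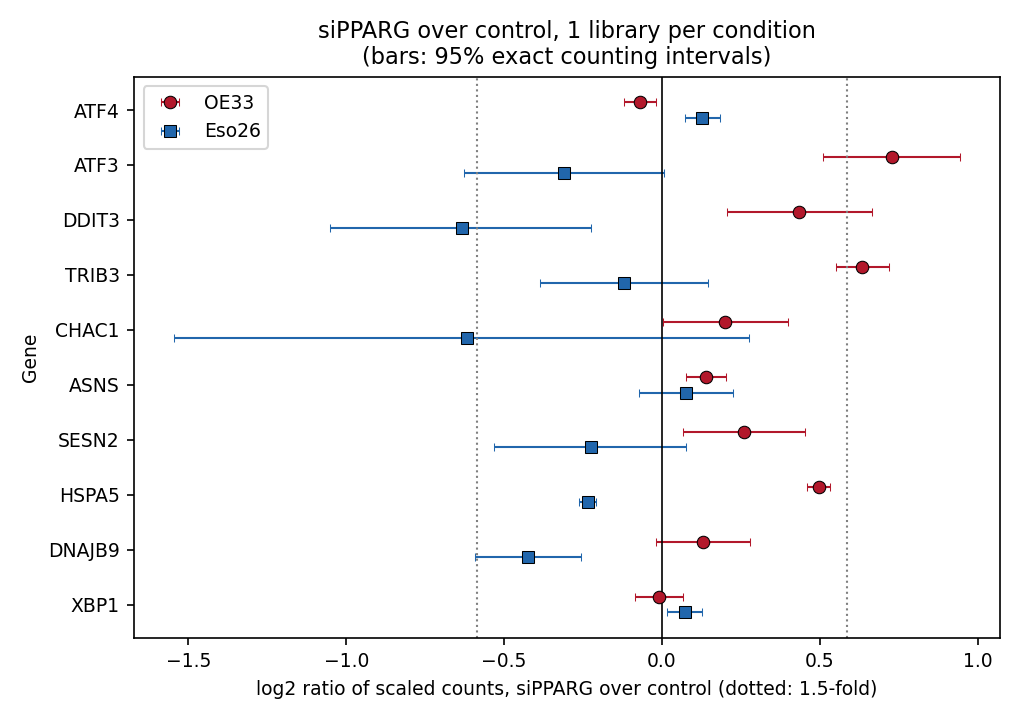
Log2 ratio of siPPARG over control for each gene in OE33 (circles) and Eso26 (squares), with 95% exact counting intervals; dotted lines mark 1.5-fold. In OE33 ATF3 and TRIB3 lie past 1.5-fold and ATF4 and XBP1 lie at or just below 0; in Eso26 DDIT3, HSPA5 and DNAJB9 have intervals below 0.

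Counted over the 10 genes, 2 were higher past 1.5-fold in OE33 and 0 were lower, where 3.37% of the 10550 kept genes were higher and 2.31% lower. The counting interval lay above 1 for 7 of the 10 and below 1 for 1, against 26% and 24.5% of all kept genes. In Eso26, 9 of the 10 were kept, DDIT3 through its control library only. There 0 were higher and 1, DDIT3, was lower past 1.5-fold, against 1.25% and 1.14% of 10421 kept genes. Over all genes this was 130 higher and 119 lower, or 170 and 83 without scaling factors. Intervals lay above 1 for 2 and below 1 for 3 of the 9, against 23.6% and 29.6% of all genes. The median log2 ratio of the 10 genes was 0.23 in OE33, where that of all kept genes was 0.002, and the median of the 9 genes was -0.22 in Eso26, where that of all kept genes was -0.007. ATF3, DDIT3, TRIB3, SESN2, HSPA5 and DNAJB9 were above 0 in OE33 and below 0 in Eso26, which is 6 of the 9 genes kept in both lines (66.7%), against 25.4% of the 9589 genes kept in both. Both intervals left out 1 in this pattern for DDIT3 and HSPA5, 2 of the 9 genes (22.2%), against 835 of all 9589 (8.71%). Since the 10 genes were chosen with earlier results of these data known, these shares are a description and not a test.

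For a treatment effect shared by both lines, edgeR's quasi-likelihood test with Benjamini-Hochberg adjustment was run on the 4 libraries with cell line as a covariate, which leaves 1 residual degree of freedom. Of 11382 genes, 0 were called (0%) at an adjusted p under 0.05, although 523 had an unadjusted p under 0.05. Among the 10 genes the adjusted p was lowest for TRIB3, at 0.944, with a log2 difference of 0.31 and an approximate SE of 0.20. DESeq2 called 13 of all genes and limma-voom called 0; none of the 10 genes was called by either, with adjusted p from 0.858 to 1. In this fit a response that differs between the lines counts as spread, so opposite directions such as those of HSPA5 and DDIT3 cannot pass it.

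Of 41 other targets of ATF4, 37 were kept in OE33 and their median log2 ratio was 0.006, or -0.014 without scaling factors, with 19 above and 18 below 0. ATF5, a mitochondrial stress factor, was the 1 of the 37 past 1.5-fold, where 3.37% of all kept genes were higher. It had 147 counts in OE33 siPPARG and 81 counts in the OE33 control (ratio 1.71, interval 1.29 to 2.27). ALDH1L2, a mitochondrial folate enzyme gene, had a ratio of 1.44 in OE33 (interval 1.10 to 1.90). SLC6A9, a glycine transporter gene, had a ratio of 1.297 in OE33 (interval 1.16 to 1.45). In Eso26 the median of the 36 kept targets was -0.044, or 0.001 without scaling factors, with 14 above and 22 below 0, or 18 and 18 without scaling factors. Among all kept genes, 5322 were above and 5228 below 0 in OE33. For Eso26 these were 5068 and 5353, or 5936 and 4513 without scaling factors.

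One ATF4 target stood apart in Eso26. SLC7A11, the cystine transporter gene that feeds glutathione synthesis, had 650 counts in Eso26 siPPARG and 1416 counts in the Eso26 control, a ratio of 0.499 (interval 0.454 to 0.548). Its log2 ratio of -1.001 ranked 10407 of 10421. In OE33 it had 1834 counts with siPPARG and 1568 counts in the control, a ratio of 1.10 (interval 1.03 to 1.18). PHGDH, the first enzyme of serine synthesis, had a ratio of 1.42 in Eso26 (interval 1.20 to 1.69) and 1.20 in OE33 (interval 0.999 to 1.45).

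Of the 14 genes for eIF2alpha kinases, phosphatase and exchange factor, 1 passed 1.5-fold, in OE33, where 3.37% of all kept genes were higher. EIF2AK2, which encodes PKR, the eIF2alpha kinase that binds double-stranded RNA and is itself an interferon-induced gene, had 8754 counts in OE33 siPPARG and 4994 counts in the OE33 control, a ratio of 1.65 (interval 1.59 to 1.71). In Eso26 it had 5458 counts with siPPARG and 7411 counts in the control, a ratio of 0.8005 (interval 0.773 to 0.829). EIF2AK3, which encodes PERK, had ratios of 1.11 in OE33 (interval 1.01 to 1.22) and 0.915 in Eso26 (interval 0.814 to 1.03). PPP1R15B, a subunit of the phosphatase that acts on eIF2alpha, had ratios of 0.998 in OE33 (interval 0.945 to 1.05) and 0.785 in Eso26 (interval 0.748 to 0.824). The part of EIF2AK2 in the ratios of the stress genes was not tested.

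No ER chaperone or folding enzyme passed 1.5-fold in either line. Of 18 kept in OE33, 13 were above 0 and 5 below, with a median log2 ratio of 0.091, where 5322 of all 10550 kept genes were above 0. Intervals of 12 of the 18 lay above 1, against 26% of all kept genes. CALR, the lectin chaperone calreticulin, led them with 25829 counts in OE33 siPPARG and 17372 counts in the OE33 control, a ratio of 1.40 (interval 1.37 to 1.43), close to that of HSPA5. In Eso26, 12 of 18 were below 0, or 10 of 18 without scaling factors, with a median of -0.18. There 5353 of all 10421 kept genes were below 0. With a 1 CPM filter or none the median of the chaperones in Eso26 was -0.105 over 20 genes, 12 of them below 0. The lowest with the 5 CPM filter was FKBP14, a collagen-folding isomerase gene, at 0.726 (interval 0.646 to 0.816). ERO1A, the oxidase gene for disulfide bonds, followed at 0.756 (interval 0.732 to 0.782), then DNAJC10, an ER reductase gene, at 0.807 (interval 0.778 to 0.839). Of the 18, 9 were above 0 in OE33 and below 0 in Eso26 (50%, against 25.4% of all genes kept in both lines). Another 4 were above 0 in both lines, 3 below 0 in both, and 2 had the reverse signs. Over both lines together, the edgeR log2 difference was 0.279 for CALR, -0.275 for FKBP14, -0.148 for ERO1A and -0.164 for DNAJC10.

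Degradation and translocation genes had a median log2 ratio of 0.090 in OE33 (10 of 16 above 0) and -0.095 in Eso26 (11 of 16 below 0, or 9 of 16 without scaling factors). Among all kept genes, 5322 of 10550 were above 0 in OE33 and 5353 of 10421 below 0 in Eso26. Of the 16, 7 were above 0 in OE33 and below 0 in Eso26 (43.8%, against 25.4% of all genes kept in both lines). Another 3 were above 0 in both lines, 4 below 0 in both, and 2 had the reverse signs. SEC61A1, the channel through which new proteins enter the ER, had a ratio of 1.23 in OE33 (interval 1.19 to 1.28) and SELENOS, a membrane protein of ER-associated degradation, 1.22 (interval 1.07 to 1.39). EDEM3, which trims mannose from misfolded glycoproteins, was lower in both lines, at 0.827 in OE33 (interval 0.764 to 0.895) and 0.806 in Eso26 (interval 0.744 to 0.872), and SEC24D, a vesicle coat gene, had 1.14 in OE33 (interval 1.06 to 1.23) and 0.821 in Eso26 (interval 0.753 to 0.896). The 6 sensor and processing genes had medians of 0.020 in OE33 and -0.14 in Eso26. Among them ERN1, which encodes IRE1, had a ratio of 1.18 in OE33 (interval 1.07 to 1.31), and CREB3L2, a relative of ATF6, one of 0.803 in Eso26 (interval 0.712 to 0.904).

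The 5 death genes listed downstream of CHOP had a median log2 ratio of 0.32 in OE33, with 4 above 0. In Eso26 the median was -0.38, with all 5 below 0. Among all kept genes, 5322 of 10550 were above 0 in OE33 and 5353 of 10421 below 0 in Eso26. TNFRSF10B, which encodes the death receptor DR5, had 5825 counts in OE33 siPPARG and 4051 counts in the OE33 control (ratio 1.35, interval 1.3 to 1.41), and 1493 counts in Eso26 siPPARG and 2114 counts in the Eso26 control (ratio 0.768, interval 0.718 to 0.821). TNFRSF10A, the gene of the related receptor DR4, had ratios of 1.29 in OE33 (interval 1.18 to 1.40) and 0.676 in Eso26 (interval 0.601 to 0.760). BBC3, which encodes PUMA and is also a p53 target, had ratios of 1.25 in OE33 (interval 1.06 to 1.47) and 0.831 in Eso26 (interval 0.628 to 1.10). PMAIP1, which encodes NOXA, was at 0.693 in Eso26 (interval 0.586 to 0.818). It was the 1 gene of the 5 below 0 in OE33 as well, at a log2 ratio of -0.166.

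Heat shock genes, a separate and mostly cytosolic branch of the answer to misfolded protein, had medians of -0.007 in OE33 and -0.077 in Eso26. Their list also holds the mitochondrial chaperonin genes HSPD1 and HSPE1, so these medians are not of cytosolic genes only. HSPB1, a small heat shock protein gene, was the 1 of 11 past 1.5-fold, in OE33, where 2.31% of all kept genes were lower. It had 4541 counts in OE33 siPPARG and 6452 counts in the OE33 control (ratio 0.662, interval 0.638 to 0.688). In Eso26 it stood at 1.23 (interval 1.15 to 1.301). HSPA1A, the heat-inducible HSP70 gene, had ratios of 1.06 in OE33 (interval 1.002 to 1.13) and 0.948 in Eso26 (interval 0.770 to 1.17). It is nearly identical to HSPA1B, and how reads shared by both were counted is not known. None of these list counts has a replicate check, and no test of a list was made. The lists, too, were chosen with earlier results of these data known.

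**Figure D3:**
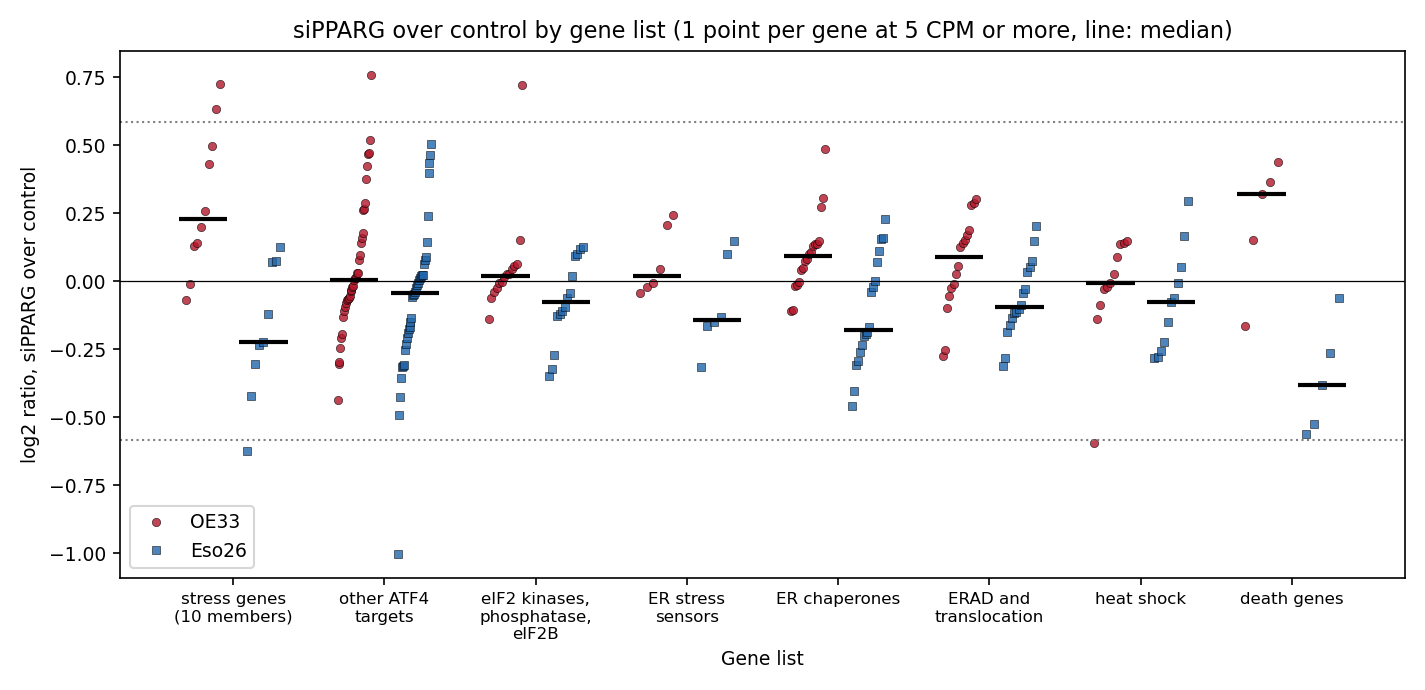
Log2 ratio of siPPARG over control for every gene at 5 CPM or more in each list, in OE33 (circles) and Eso26 (squares); black lines are medians and dotted lines 1.5-fold. The medians of the 10 stress genes (0.23 and -0.22) and the death genes (0.32 and -0.38) lie above 0 in OE33 and below 0 in Eso26. ER chaperones (0.091 and -0.18), degradation and translocation genes (0.090 and -0.095), sensors (0.020 and -0.14) and eIF2 genes (0.019 and -0.078) have the same signs. Their OE33 medians are under 0.1, the smallest taken as a direction. The other ATF4 targets centre near 0 in both.

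The controls of the 2 lines differed most in CHAC1, TRIB3 and ASNS among the 10 genes. The same control libraries serve as denominators in the siPPARG comparisons, so the 2 kinds of ratio are not independent. CHAC1 had 385 counts (23.2 CPM) in the OE33 control and 30 counts (1.29 CPM) in the Eso26 control, 18.0-fold higher in OE33 (interval 12.4 to 27.0). TRIB3 had 1887 counts (114 CPM) in the OE33 control and 260 counts (11.2 CPM) in the Eso26 control, 10.2-fold higher (interval 8.92 to 11.6). ASNS had 3666 counts (221 CPM) in the OE33 control and 747 counts (32.2 CPM) in the Eso26 control, 6.87-fold higher (interval 6.35 to 7.44).

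These 3 were followed by DDIT3 at 2.76-fold (interval 2.23 to 3.42), SESN2 at 2.70-fold (interval 2.28 to 3.21), ATF3 at 1.96-fold (interval 1.62 to 2.36) and ATF4 itself at 1.63-fold (interval 1.57 to 1.69). DDIT3 and SESN2 cannot be ordered, since their intervals overlap almost wholly, and neither can ATF3 and ATF4, whose intervals also overlap. HSPA5 went the other way, with 10402 counts (627 CPM) in the OE33 control and 26794 counts (1155 CPM) in the Eso26 control, a ratio of 0.543 (interval 0.531 to 0.556). XBP1 had a ratio of 0.696 (interval 0.664 to 0.728) and DNAJB9 one of 1.33 (interval 1.19 to 1.48), both inside 1.5-fold.

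Past 1.5-fold, 7 of the 10 genes were higher and 1 was lower in the OE33 control, but 31.8% of 11211 kept genes were higher and 27.5% lower between these lines. Intervals lay above 1 for 8 genes and below 1 for 2, against 45.7% and 43.7% of all genes, so differences are common between these lines. CHAC1, TRIB3 and ASNS ranked 463, 618 and 763 of 11211 from the top. The median log2 ratio of the 10 was 1.19, and that of all kept genes was 0.029.

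The line effect over both treatments came from the same edgeR quasi-likelihood fit, with Benjamini-Hochberg adjustment and treatment as a covariate. It called 8 of the 10 genes higher and 1 lower in OE33 at an adjusted p under 0.05, where 37.2% of 11382 genes were called higher and 34.1% lower. The 2 libraries of a line come from 1 cell line, and nothing in the labels says that they are separate cultures. The 1 residual degree of freedom is the difference between the lines in their siPPARG ratio. These p-values therefore do not measure the spread between cultures. With OE33 as the group on top, the log2 difference was 4.53 for CHAC1 (approximate SE 0.26, edgeR adjusted p = 7.62e-05), 3.72 for TRIB3 (approximate SE 0.22, edgeR adjusted p = 7.53e-05) and 2.81 for ASNS (approximate SE 0.12, edgeR adjusted p = 3.02e-05). DDIT3 had 1.98 (edgeR adjusted p = 0.0019), SESN2 1.67 (edgeR adjusted p = 0.000661), ATF3 1.49 (edgeR adjusted p = 0.00469), DNAJB9 0.68 (edgeR adjusted p = 0.015), ATF4 0.61 (edgeR adjusted p = 0.00559) and XBP1 -0.56 (edgeR adjusted p = 0.00647). HSPA5 had -0.51 and did not pass (edgeR adjusted p = 0.0528); 4 of 5 alternatives put it under 0.05, with adjusted p from 0.00299 to 0.0512 over all 5. Among the siPPARG libraries HSPA5 had 884 CPM in OE33 and 980 CPM in Eso26, closer together than the controls.

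**Figure D4:**
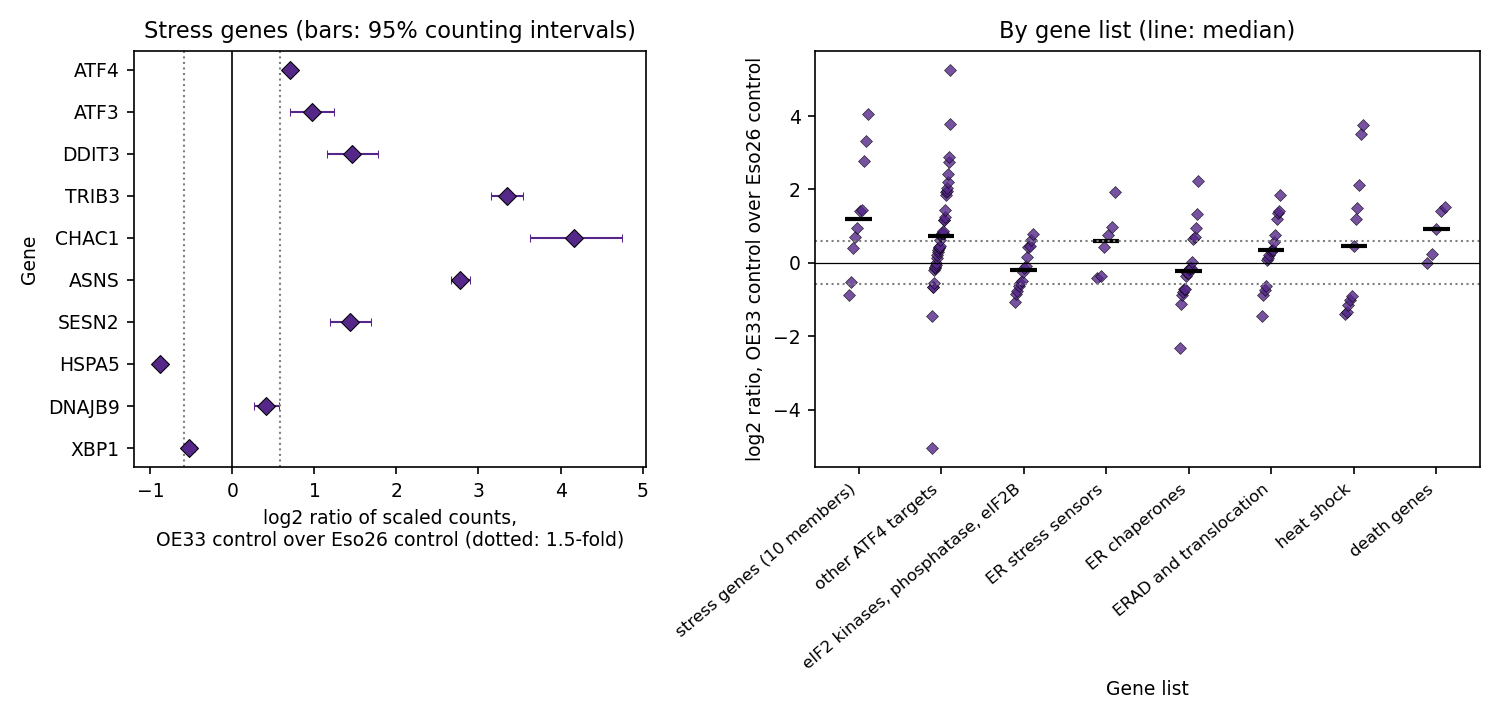
Left, log2 ratio of the OE33 control over the Eso26 control for each gene with 95% exact counting intervals; right, the same ratio for each gene at 5 CPM or more in the lists, with medians as black lines and 1.5-fold dotted. CHAC1, TRIB3 and ASNS lie furthest above 0, HSPA5 and XBP1 below it; the other ATF4 targets have a median of 0.74 and the ER chaperones one of -0.22.

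Of 38 kept ATF4 targets other than the 10 genes, 21 were higher and 4 lower past 1.5-fold in the OE33 control, with a median log2 ratio of 0.74. Of all 11211 kept genes, 31.8% were higher and 27.5% lower. The edgeR line effect called 24 of the targets higher and 5 lower, against 37.2% and 34.1% of 11382 genes. SLC6A9 had 532 counts in the OE33 control and 52 counts in the Eso26 control, 14.3-fold higher (interval 10.7 to 19.4). ALDH1L2 had 90 counts in the OE33 control and 1 count in the Eso26 control, a ratio of 126 whose counting interval runs from 22.0 to 5029. The list is not uniform: SLC1A4, a neutral amino acid transporter gene, had 15 counts in the OE33 control and 770 counts in the Eso26 control, a ratio of 0.0273 (interval 0.0152 to 0.0452), and ATF5 had a ratio of 0.364 (interval 0.282 to 0.467).

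ER chaperones had a median of -0.22 between the controls, with 5 of 18 higher and 6 lower past 1.5-fold. These counts are near the shares of all kept genes, 31.8% higher and 27.5% lower. DNAJC3, a co-chaperone of BiP that also inhibits PERK, had 995 counts in the OE33 control and 6965 counts in the Eso26 control, a ratio of 0.200 (interval 0.187 to 0.214), while FKBP14 was 4.67-fold (interval 4.30 to 5.08) and SIL1, the exchange factor for BiP, 2.51-fold higher (interval 2.19 to 2.86) in the OE33 control. Among degradation genes EDEM1, which binds misfolded glycoproteins, was 3.59-fold (interval 3.34 to 3.85) and its relative EDEM2 2.66-fold higher (interval 2.37 to 2.99) in the OE33 control, and SELENOS had a ratio of 0.364 (interval 0.326 to 0.405). Among the sensors CREB3L2 was 3.83-fold (interval 3.50 to 4.195) and ERN1 1.99-fold higher (interval 1.77 to 2.23) in the OE33 control. EIF2S1, which encodes eIF2alpha itself, had a ratio of 0.477 (interval 0.456 to 0.498).

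Of the 5 death genes, 3 were higher past 1.5-fold in the OE33 control and 0 lower, with BBC3 at 2.92-fold (interval 2.35 to 3.66) and TNFRSF10B at 2.68-fold (interval 2.54 to 2.83), and the list median was 0.91. Heat shock genes went both ways, 5 of 11 higher and 5 lower past 1.5-fold. Of all kept genes, 31.8% were higher and 27.5% lower past 1.5-fold. HSPA1A was 13.7-fold (interval 11.8 to 15.9) and BAG3, the co-chaperone gene that rises with proteotoxic stress, 11.5-fold higher (interval 10.0 to 13.3) in the OE33 control, while HSPD1, the mitochondrial chaperonin gene, had a ratio of 0.532 (interval 0.523 to 0.541).

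The promoters of 4 of these genes, CHAC1, ASNS, HSPA5 and XBP1, are shown because they hold known elements of the 2 pathways. ATF3, which also holds such an element, is not shown. Whether these elements bear on the differences between the lines was not tested. Each sequence is the 250 bases before the RefSeq gene start on GRCh38.p14, 5′ to 3′ on the gene's strand, with the motif in capitals. In CHAC1 and ASNS the capitals mark TGATGNAA, the core of the composite element bound by C/EBP and ATF factors (in CHAC1 it reads on the other strand). In HSPA5 and XBP1 they mark the ER stress element, CCAAT and CCACG with 9 bases between them.

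CHAC1, chr15:40953221-40953470, plus strand: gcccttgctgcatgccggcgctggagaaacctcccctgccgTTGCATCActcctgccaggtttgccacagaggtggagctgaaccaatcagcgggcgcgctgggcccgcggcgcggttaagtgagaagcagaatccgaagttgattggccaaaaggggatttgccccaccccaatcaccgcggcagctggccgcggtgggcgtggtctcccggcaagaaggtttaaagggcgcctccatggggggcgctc
ASNS, chr7:97872409-97872658, minus strand: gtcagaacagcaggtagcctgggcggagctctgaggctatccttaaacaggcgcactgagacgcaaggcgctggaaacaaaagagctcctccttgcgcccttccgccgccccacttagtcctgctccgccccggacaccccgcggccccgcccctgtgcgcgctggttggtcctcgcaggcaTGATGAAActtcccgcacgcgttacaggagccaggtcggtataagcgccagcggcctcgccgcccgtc
HSPA5, chr9:125241344-125241593, minus strand: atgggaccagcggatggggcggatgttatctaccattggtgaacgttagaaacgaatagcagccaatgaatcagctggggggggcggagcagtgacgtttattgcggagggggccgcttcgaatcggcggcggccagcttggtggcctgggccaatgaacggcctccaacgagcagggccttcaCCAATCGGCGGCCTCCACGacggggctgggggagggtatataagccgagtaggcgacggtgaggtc
XBP1, chr22:28800570-28800819, minus strand: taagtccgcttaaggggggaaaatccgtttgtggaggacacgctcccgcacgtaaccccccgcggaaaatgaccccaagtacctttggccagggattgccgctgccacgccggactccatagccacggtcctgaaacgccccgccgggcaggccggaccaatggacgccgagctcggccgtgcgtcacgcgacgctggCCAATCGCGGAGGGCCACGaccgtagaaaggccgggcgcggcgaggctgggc

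All 10 genes matched the RefSeq promoter table, with 17 gene starts, and 7 motifs were searched on both strands in these 250 bases. TGATGNAA was found in ASNS (bases 68 to 61 before the start), CHAC1 (bases 209 to 202) and ATF3 (bases 191 to 184, at 1 of its starts), and in 3.14% of 35116 promoters. The ER stress element was found in HSPA5 (bases 66 to 48 before the start) and XBP1 (bases 52 to 34), and in 0.074% of promoters. None of the 10 genes held TGACGTCA (the cAMP response element, 1.65% of promoters), TGACGTGG (the unfolded protein response element core, 0.612%), the core of the interferon-stimulated response element (3.02%), the second form of the ER stress element (0.0513%) or the PPAR element DR1, an exact AGGTCA repeat with 1 base between (0.0171%). The CCACG of the ER stress elements also occurs in TGACGTGG read on the other strand. A match is a description of these letters, and no match says only that they are not in this window. PPARG peaks were not placed at these genes, since the peak coordinates are on hg19 and the positions used here are on GRCh38.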

How the data were processed

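RNA-seq of 4 libraries (OE33 and Eso26, each with siPPARG or control siRNA, 1 library per group by sample title) was used. The deposited values are raw counts per gene by the authors, whole numbers with no normalisation, judged from the files' values. The submitters' processing notes name the build hg19 and the tools MACS2, Picard, Bowtie, STAR and Trim Galore, without their roles. The sources used here do not give the counter, strand setting, treatment of multi-mapping reads or annotation. Both tables have 37533 rows, of which 40 repeat an identifier and were summed, leaving 37493. Totals were 16866996 to 23019840 counts, so a count of 0 allows up to 3 counts, or 0.129 to 0.181 CPM.

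TMM factors were computed over the 4 libraries (edgeR 4.0.16, R 4.3.3). Log2 ratios of CPM used a prior count of 2; printed ratios are of scaled counts without a prior count, with exact conditional binomial (Clopper-Pearson) 95% intervals, and CPM in the plot of levels has exact Poisson intervals. Both fits across all genes were edgeR quasi-likelihood with cell line and treatment, and Benjamini-Hochberg over all genes at 5 CPM or more in any library. They were run on simulated data with the same spread set for every gene and no difference in treatment effect between lines. The simulation cannot show how the fits behave under the spread between cultures, which is not known here. The approximate SE of the fits is the log2 difference over the root of F. DESeq2 1.42.0 and limma 3.58.1 (voom) were alternatives, with other scalings, filters, prior counts and a 2-fold call; TMM within each comparison was chosen after seeing the data.

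The members and lists were chosen with earlier results of these data known. Named genes are the 10 members, PPARG, EIF2AK2 and, of each list, up to 4 kept genes with the largest absolute log2 ratio after siPPARG in either line and up to 3 between the controls; not all are printed. In the lists, 3 older symbols were matched as RefSeq synonyms. Peak lists were not used, because no hg19 gene positions were at hand. Promoter sequences are RefSeq's.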

Additional observations from a re-analysis of the deposited data

Results flagged for a closer look

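3 genes differed between siPPARG and control in opposite directions in the 2 lines, with both counting intervals leaving out 1. DDIT3 had a log2 ratio of 0.432 in OE33 and -0.623 in Eso26, where it was kept through its control library only. HSPA5 had 0.496 in OE33 and -0.236 in Eso26. ATF4 had -0.068 in OE33 and 0.127 in Eso26, the reverse of the other 2 and much smaller. Of all 9589 genes kept in both lines, 8.71% had such intervals with OE33 higher and Eso26 lower, as DDIT3 and HSPA5 did, and 5.53% had the reverse, as ATF4 did. The difference between the lines was not tested, since each condition has 1 library, and PPARG itself was not detectably lower in the library labelled Eso26 siPPARG.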

How the results depend on the processing

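No paired analysis was possible because each group has 1 library and the labels give no replicate numbers; for the same reason no library could be left out. With a 2-fold call in place of 1.5-fold, 0 of the 10 genes were higher in OE33 siPPARG, 0 lower in Eso26 siPPARG and 0 lower in the OE33 control against the Eso26 control. Between the controls, 5 of the 10 genes were higher in OE33 past 2-fold, against 7 past 1.5-fold. Of all 11211 genes kept there, 2407 were higher and 1826 lower past 2-fold. Over all pathway lists together the 2-fold call left 0 higher (against 2) and 0 lower (against 1) in OE33 siPPARG. Between the controls it left 28 higher (against 44) and 10 lower (against 23) of 108 kept list genes. Without scaling factors 0 of the genes were lower past 1.5-fold in Eso26 siPPARG, which removes DDIT3, and over all genes the split in Eso26 was 170 higher and 83 lower, against 130 and 119. Of the pathway list genes, 2 were lower past 1.5-fold in OE33 with no expression filter and 2 in Eso26 with a 1 CPM filter or none, against 1 each, because more genes were tested. The common treatment effect had 0 calls by edgeR; DESeq2 called 2 higher and 11 lower, and edgeR with no expression filter 36 higher and 28 lower. The cause of these last differences was not tested. The log2 ratios of the 10 genes in the 3 comparisons stayed inside their counting intervals in 118 of 120 alternatives; both exceptions were HSPA5 without scaling factors, at -0.19 in Eso26 and -0.92 between the controls. Counts set the limit for CHAC1 in Eso26 (18 counts with siPPARG and 30 in the control) and for DDIT3 there (80 with siPPARG and 135 in the control).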
